A study of Rattus norvegicus with 12 samples.

Results

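The genes described are the cytosolic ribosomal protein genes of the rat, taken as every gene whose symbol begins with Rpl or Rps followed by a number, or with Rplp, leaving out Rps6 kinases and names marked as pseudogenes. The rule found 95 genes with 87 symbols and 135 transcripts, out of 32883 genes and 41078 transcripts listed. RNA was sequenced from heart muscle cells in culture, isolated from Sprague-Dawley rats of 1 to 3 days, after rRNA removal. Cells had been plated at 40000 per cm2, exposed to 7% serum for 24 h and to 10 µM AraC, which kills dividing cells, and AraC was taken away 24 h ahead of treatment. The 6 groups, of 2 libraries each, were given acetic acid as vehicle, 100 nM endothelin-1 (ET-1) or 10 µM phenylephrine (PE) for 24 h, each with the solvent DMSO or with JQ1 at 1 µM. ET-1 and PE are Gq-coupled receptor agonists that make these cells grow, and JQ1 is an inhibitor of BET bromodomain proteins. Separate cultures or animals are not named for the libraries of a group, so p-values measure the spread between these libraries, which may be technical.

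Cytosolic ribosomes consist of a small subunit, which reads the mRNA, and a large subunit, which joins amino acids and carries a lateral stalk that recruits elongation factors. Their proteins are made in near-equal amounts, and many of their mRNAs begin with a pyrimidine-rich stretch at the 5′ end (the TOP motif) through which mTOR signalling sets their translation. Growing heart muscle cells make more ribosomes, and several members have paralogs with restricted expression, such as the striated-muscle protein Rpl3l.

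Levels are FPKM (fragments per kilobase of transcript, scaled to library size) rescaled between libraries by median of ratios, so they are comparable between genes per length. Mean coverage times length gave 2.34 to 2.97 Gb per library, and the members took 1.61 to 2.77% of the deposited FPKM. Of the 95 members, 93 passed the filter on low values (1 rescaled FPKM or more in any 2 libraries), and 13793 genes passed in all. The cardiomyocyte markers (7 genes) summed to 10024 to 13882 rescaled FPKM in the DMSO libraries and to 14357 to 21361 in the JQ1 libraries. Tnnt2, with a mean of 8933, makes up most of that sum, and the list did not move one way: its median log2 differences with JQ1 were 0.10, 0.03 and -0.07 in vehicle, ET-1 and PE. Tnnt2 was called higher in each treatment, and Tnni3 and Ryr2 lower with ET-1 and with PE (these 3 genes were singled out after their values were seen). The 8 fibroblast markers summed to 1334 and 324 with vehicle, 876 and 212 with ET-1 and 957 and 217 with PE (replicate 1 and replicate 2), and with JQ1 to 659.5 and 147, 506 and 109, and 634 and 121 in the same order. Replicate 2 was thus lower in every group, by a change of -75.7 to -81.0%, and JQ1 was lower in every same-numbered pair. No fibroblast marker was called with JQ1 without the replicate block, and 8 of 8 were called lower in each treatment with it. The 5 smooth muscle and mural markers summed to 75.6 to 210.3 in the DMSO libraries and 26.0 to 74.4 in the JQ1 libraries. The 4 endothelial markers stayed at or below 3.28 and the 5 macrophage markers at or below 6.62. None of these marker genes was listed at 0 in every library, and the part of such cells in the results below was not tested. In bulk RNA, fewer cells of a type and less RNA per cell cannot be told apart.

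The members were among the most abundant transcripts. Their median level over the 12 libraries was 279 rescaled FPKM, against 10.1 for all tested genes and 36.2 for 75 tested mitochondrial ribosomal protein genes. The 5 highest were Rplp0 at 1223, Rpl24 at 866, Rps3 at 845, Rpl23 at 796 and Rps14 at 784 (means over 12 libraries). The 5 lowest tested were Rpl39l at 1.50, the Rplp0 copy Rplp0l1 at 6.95, an Rpl21 copy on chromosome 13 at 9.79, Rps4y2 at 14.3 and an Rpl7a gene at 19.2. Single-exon genes made up 20 members, and 19 of these that were tested had a median level of 115, against 325 for tested members with more exons. Such copies often share reads with their multi-exon source, and 6 sets of 13 members moved in lockstep, with an SD of the log2 ratio between copies under 0.02. The sets are Rpl32 (2 genes), Rpl35a with Rpl35al1 (3 genes), Rpl7a (2 genes), Rps19 with Rps19l2, Rps27a (2 genes) and Rps4x (2 genes), and reads within each set cannot be assigned to 1 gene. Rps19bp1, a nucleolar regulator of SIRT1, and Rpl7l1, an assembly-related paralog of Rpl7, match the rule by name and are not subunits of the mature ribosome.

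The libraries differed in the level of the whole set. The median deviation of the 93 members from their own means was -0.21 and -0.50 on the log2 scale with vehicle, -0.02 and 0.03 with ET-1, and -0.22 and 0.02 with PE (replicate 1 and replicate 2). With JQ1 it was -0.01 and -0.06, 0.08 and 0.60, and -0.08 and 0.40 in the same order. The ET-1 plus JQ1 library of replicate 2 stood highest and the vehicle library of replicate 2 lowest, and replicates of 4 of the 6 groups lay over 0.2 apart. The median over all tested genes stayed between -0.01 and 0.01 in every library. Large and small subunit genes moved together, with medians of 0.56 and 0.64 in the highest library and -0.48 and -0.55 in the lowest. A member's highest library was a median of 2.18 times its lowest (range 1.29 for Rpl7l1 to 3.80 for Rps4y2). Mitochondrial ribosomal protein genes, which serve a separate ribosome, did not follow this pattern, with medians from -0.23 to 0.20 that were lower in each JQ1 group than in its DMSO group.

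**Figure D1:**
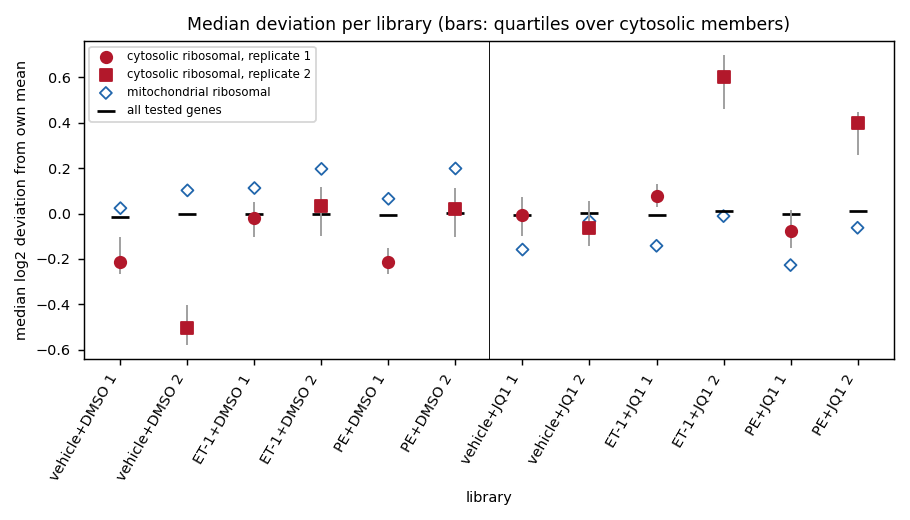
Median log2 deviation of the 93 cytosolic members from each gene's own mean in the 12 libraries (circles replicate 1, squares replicate 2, bars quartiles over members), with the mitochondrial ribosomal genes (diamonds) and all tested genes (dashes). The cytosolic members range from -0.50 in the vehicle library of replicate 2 to 0.60 in the ET-1 plus JQ1 library of replicate 2, while the median of all tested genes stays within 0.01 of 0.

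**Figure D2:**
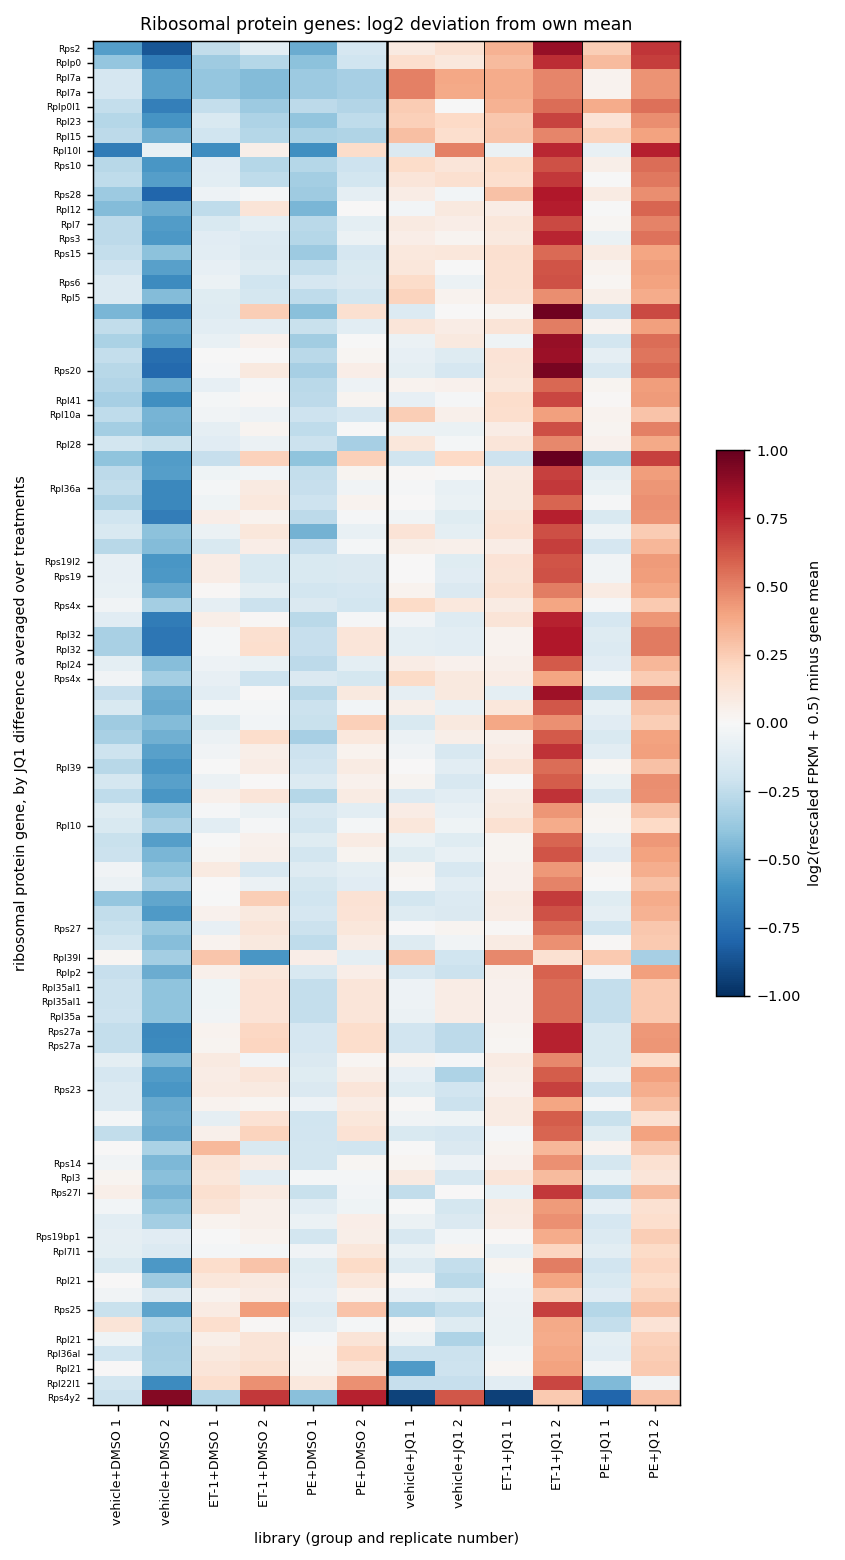
Each row is 1 of the 93 tested members and each column 1 of the 12 libraries; the colour is log2(rescaled FPKM + 0.5) minus the gene's mean, limited to -1 and 1, and only rows of members named in the text are labelled. Most rows are darkest red in the ET-1 plus JQ1 library of replicate 2 and blue in the vehicle library of replicate 2; Rps4y2, in the bottom row, is lower in replicate 1 in every group.

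JQ1 was associated with higher levels of a small number of members in every treatment. Against DMSO, limma with Benjamini-Hochberg adjustment over all genes called 8 members higher in vehicle, 9 with ET-1 and 9 with PE, and 0 lower in each. In all tested genes 15.3, 17.9 and 17.5% were called higher (32.0, 37.5 and 36.5% in either direction), so the members' shares of 8.60, 9.68 and 9.68% lay under the background. The sizes were nevertheless positive nearly throughout the set: the median log2 difference was 0.32 in vehicle (90 of 93 members above 0), 0.34 with ET-1 (91 of 93) and 0.25 with PE (85 of 93), against 0.01, 0.03 and 0.01 over all tested genes. The median standard error of a member was 0.22, against 0.15 over all genes. In replicate 1 alone the medians were 0.18, 0.09 and 0.12, and in replicate 2 alone 0.46, 0.60 and 0.39. Replicate 2 also has the lower fibroblast marker sums given above, and their part in these differences was not tested. With replicate number as a block the calls were 15 higher and 1 lower, 19 higher and 1 lower, and 12 higher and 1 lower, at backgrounds of 24.9, 27.1 and 26.7% higher and 27.9, 29.8 and 29.7% lower, and every member called without the block was called with it. For the fits that follow, the shares of all tested genes are not given here. With 1 library left out the calls fell to 3 in vehicle (without vehicle replicate 2 or vehicle plus JQ1 replicate 1), 3 with ET-1 and 1 with PE (each without its JQ1 library of replicate 2), and with ET-1 rose to 20 without its JQ1 library of replicate 1.

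The same 7 genes were called higher in all 3 treatments: Rplp0, Rplp0l1, Rps2, Rpl15, Rpl23 and the linked pair of Rpl7a genes. The treatments share no library, but their tests share an estimate of the spread of each gene, so the calls are not independent. These 7 genes make up 87.5, 77.8 and 77.8% of the members called in vehicle, with ET-1 and with PE. The share of all tested genes called in all 3 is not given here. Rplp0, the base of the stalk, lies at chr12:46791528-46794797, - strand (rn6, as are the coordinates of genes below) and stood at 893 and 719 with vehicle, 912 and 959 with ET-1 and 879 and 1017 with PE, against 1308 and 1257, 1449.9 and 1945 and 1451 and 1884 in the same order with JQ1. Its log2 differences were 0.68 ± 0.20, 0.84 ± 0.20 and 0.81 ± 0.20 (SE, limma adjusted p = 0.0336, 0.0119 and 0.0148), and every JQ1 library lay above every DMSO library. Rplp0l1 (chr2:206902962-206903920, + strand) stood at 5.59 and 3.97 with vehicle, 5.61 and 5.08 with ET-1 and 5.51 and 5.37 with PE, against 8.06 and 6.68, 8.63 and 10.1 and 8.78 and 10 in the same order with JQ1. Here too the JQ1 and DMSO libraries did not overlap within a treatment, and the differences were 0.59 ± 0.16, 0.75 ± 0.16 and 0.74 ± 0.16 (limma adjusted p = 0.0269, 0.00814 and 0.00918). Within each replicate number, the level of Rplp0l1 ranked the libraries in the same order as that of Rplp0. Rplp0l1 is a low copy of Rplp0 outside the linked sets above, and whether its reads come from Rplp0 was not tested. Its calls are thus not separate evidence beside those of Rplp0. Rplp2, which forms the outer stalk, was not called, with differences of 0.17 ± 0.21, 0.24 ± 0.21 and 0.23 ± 0.21 (limma adjusted p = 0.563, 0.409 and 0.419).

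Rps2, a small subunit protein beside the mRNA entry channel, had the largest average difference of the set. The gene (chr10:14088319-14089979, + strand) stood at 262 and 212 with vehicle, 324 and 356 with ET-1 and 272 and 341 with PE, against 407 and 425, 488 and 701 and 455 and 629.7 in the same order with JQ1. The 6 JQ1 libraries all lay above the 6 DMSO libraries, and the differences were 0.82 ± 0.23, 0.79 ± 0.23 and 0.81 ± 0.23 (limma adjusted p = 0.026, 0.0263 and 0.0235). Rps10, at the head of the small subunit, stood at 78.6 and 63.5 with vehicle, 87.8 and 78.1 with ET-1 and 78.1 and 82.2 with PE, against 108 and 104, 109 and 149 and 99 and 140.3 in the same order with JQ1. Without the block it was called with ET-1 only, at 0.61 ± 0.20 (limma adjusted p = 0.0425), and gave 0.58 ± 0.20 in vehicle and 0.55 ± 0.20 with PE, where it passed with the replicate block (adjusted p = 0.0363 and 0.0403). Rps15, which lines the decoding site, was called with ET-1 (0.49 ± 0.17, limma adjusted p = 0.0479) and with PE (0.51 ± 0.17, 0.0435) and gave 0.43 ± 0.17 in vehicle (0.079, and 0.0362 with the block). Rps6, the substrate of the S6 kinases, stood at 553 and 393 with vehicle, 583 and 528 with ET-1 and 541 and 548 with PE, against 689 and 582, 674 and 947 and 615 and 804 in the same order with JQ1, and none of its differences passed the test (0.44 ± 0.23, 0.53 ± 0.23 and 0.37 ± 0.23, limma adjusted p = 0.177, 0.107 and 0.245).

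On the large subunit, Rpl15 had the smallest error of the 7. It (chr15:8189253-8192152, + strand) stood at 151 and 129 with vehicle, 157 and 148 with ET-1 and 145 and 147 with PE, against 223 and 203, 219 and 254 and 211 and 239 in the same order with JQ1. Every JQ1 library lay above every DMSO library, and the differences were 0.61 ± 0.12, 0.63 ± 0.12 and 0.62 ± 0.12 (limma adjusted p = 0.00671, 0.00489 and 0.00524). Rpl15 kept its call when any 1 of the libraries compared was left out (4 of 4 fits in each treatment, highest adjusted p = 0.0482). Each such fit leaves a group with 1 library, which is assumed to vary like the other groups. Rpl23, which lies at the subunit interface, stood at 630.5 and 510.3 with vehicle, 693 and 622 with ET-1 and 587 and 646 with PE, against 910.3 and 886, 926 and 1228 and 847 and 1059.9 in the same order with JQ1. Its differences were 0.66 ± 0.19, 0.70 ± 0.19 and 0.62 ± 0.19 (limma adjusted p = 0.0276, 0.0191 and 0.0308), and in each treatment the call held in 1 of 4 fits with a library left out. Rpl7a (chr3:5459160-5461583, + strand, with a linked copy at chr3:4867233-4869656, + strand) stood at 16.4 and 12.5 with vehicle, 14 and 13.5 with ET-1 and 14.2 and 14.6 with PE, against 26.4 and 24.2, 24 and 26.1 and 19 and 25.4 in the same order with JQ1. Its differences were 0.80 ± 0.16, 0.84 ± 0.16 and 0.59 ± 0.16 (limma adjusted p = 0.00658, 0.00411 and 0.0196), and it held in 4 of 4 such fits in vehicle and with ET-1 and in 1 of 4 with PE. Rps2 held in 1, 1 and 2 of 4 such fits, Rplp0 in 1, 2 and 2, and Rplp0l1 in 2, 2 and 3. Rpl10a was called in vehicle only (0.51 ± 0.13, limma adjusted p = 0.0213) and Rpl28 with PE (0.48 ± 0.14, 0.0303) and, with the replicate block alone, with ET-1 (0.39 ± 0.14, 0.0367). Rpl3, which borders the peptidyl transferase centre, stood at 627 and 460.2 with vehicle, 667 and 573 with ET-1 and 608 and 607 with PE, against 655 and 552, 668 and 767 and 587 and 669.9 in the same order with JQ1. These groups overlapped in vehicle and with PE, and no difference of Rpl3 passed (0.16 ± 0.18, 0.21 ± 0.18 and 0.05 ± 0.18, limma adjusted p = 0.524, 0.388 and 0.861).

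**Figure D3:**
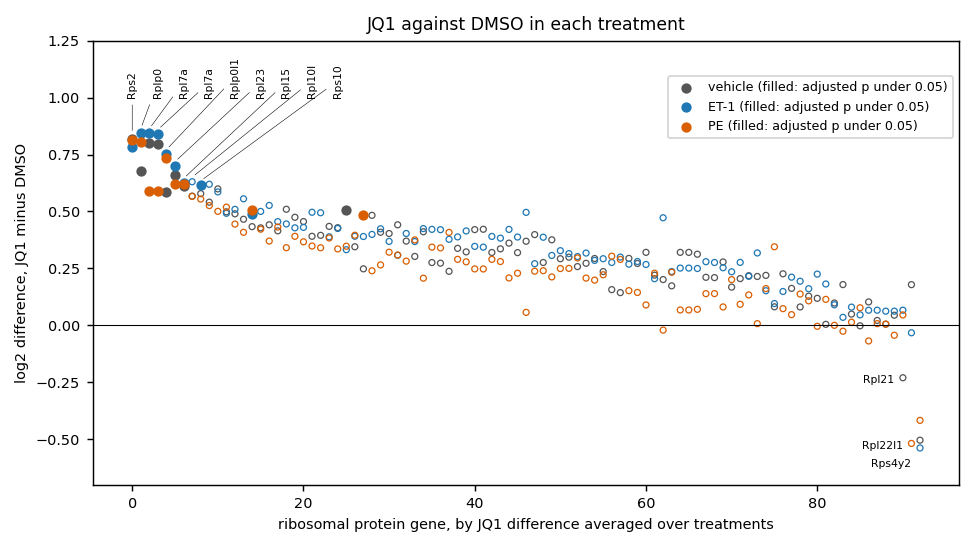
Log2 difference between JQ1 and DMSO for the 93 tested members, ordered by their average over the 3 treatments (grey vehicle, blue ET-1, orange PE; filled points have a limma adjusted p under 0.05). The filled points are 8, 9 and 9, all above 0, and the 3 treatments give similar orders.

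The size of the JQ1 difference of a member was alike between treatments. Across the 93 members Pearson's r was 0.91 between vehicle and ET-1, 0.80 between vehicle and PE and 0.87 between ET-1 and PE, and 0.88, 0.85 and 0.92 across all 13793 tested genes. The points are genes that share libraries within a treatment, so these are descriptions. An average of the JQ1 difference over the 3 treatments, a contrast chosen after seeing the data, called 37 members higher and 0 lower (39.8% of 93), at a background of 30.2% higher and 60.1% in either direction. Of the 37, 26 were called in no single treatment, among them Rpl41, Rps28, Rpl12, Rpl7, Rps3, Rps6 and Rpl5. Without the vehicle library and the ET-1 plus JQ1 library of replicate 2, the outermost of the set, 17 members were called. With 1 library left out the average called between 21 members (without PE replicate 1) and 59 (without ET-1 plus JQ1 replicate 1). Large subunit genes without the stalk had a median of 0.29 (54 genes, 22 called) and small subunit genes of 0.34 (36 genes, 13 called). Leaving out the 19 tested members with 1 exon gave 33 calls, and counting 1 gene per linked set gave 34 calls among 86 genes. Both counts are thus taken from fewer than 93 members. The shares of all tested genes in the fits with libraries left out are not given here. Whether those counts moved with all genes thus cannot be read from them.

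No member passed the threshold for either agonist, with or without JQ1. ET-1 against vehicle called 0 of 93 members without JQ1 and 0 of 93 with it, at backgrounds of 2.87 and 1.36%. PE against vehicle also called 0 and 0, at backgrounds of 6.07 and 0.718%. At an unadjusted p under 0.05, limma gave 8 and 7 members for ET-1 and 1 and 1 for PE. The share of all tested genes at that unadjusted threshold is not given here, so these counts have no background. With the replicate block the members called remained 0 in all 4, at backgrounds of 18.4 and 11.6% for ET-1 and 24.0 and 12.1% for PE (lowest limma adjusted p = 0.0506 for ET-1 without JQ1). The medians were 0.32 and 0.37 for ET-1 and 0.23 and 0.17 for PE on the log2 scale, and 84 to 90 of 93 members were above 0. These medians were larger in replicate 2: they were 0.49 and 0.64 for ET-1 there and 0.17 and 0.09 in replicate 1. For PE they were 0.48 and 0.43 in replicate 2 and -0.02 and -0.06 in replicate 1. The comparisons within DMSO share the vehicle libraries, as do those within JQ1.

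Rpl22l1, a paralog of Rpl22, had the largest agonist differences without JQ1. It (chr2:115362799-115364729, + strand) stood at 95.1 and 69.7 with vehicle, 122 and 149 with ET-1 and 117 and 149 with PE, against 92 and 92.4, 100.4 and 172 and 79.8 and 106 in the same order with JQ1. Both agonist groups lay above vehicle without JQ1, and with PE the JQ1 libraries lay below the DMSO libraries. The differences from vehicle were 0.72 ± 0.28 for ET-1 and 0.69 ± 0.28 for PE (limma adjusted p = 0.199 and 0.182), and JQ1 with PE gave -0.52 ± 0.28 (limma adjusted p = 0.18). Rps25, a small subunit protein needed for internal ribosome entry, gave 0.62 ± 0.29 with ET-1 without JQ1 (limma adjusted p = 0.274). The linked Rpl32 genes followed Rpl22l1 with PE, at 0.47 ± 0.30 (0.392). Under JQ1 the largest differences were those of Rps20 with ET-1 (0.67 ± 0.32, limma adjusted p = 0.337) and the multi-exon Rpl21 on chromosome 12 with PE (0.51 ± 0.18, limma adjusted p = 0.231). The linked Rps27a genes, which encode a ubiquitin fusion, gave 0.63 ± 0.28 with ET-1 and JQ1, and Rplp2 0.38 ± 0.21 with PE and JQ1. The lowest differences from vehicle were those of Rps4y2 with ET-1 (-0.15 ± 0.74), with PE (-0.17 ± 0.74) and with ET-1 under JQ1 (-0.18 ± 0.74), and those of the linked Rpl7a genes with PE under JQ1 (-0.20 ± 0.16 and -0.20 ± 0.16). None of these passed.

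A contrast that averages both agonists over DMSO and JQ1, also chosen after seeing the data, called 2 members, Rpl21 (0.41 ± 0.11, limma adjusted p = 0.0388) and Rpl36al (0.36 ± 0.10, 0.0417), at backgrounds of 9.01% higher and 19.8% in either direction. With the replicate block it called 27, at a background of 19.8% higher, and with 1 library left out it called 0 in 8 of 12 fits and 30 without the ET-1 plus JQ1 library of replicate 1. The shares of all tested genes in those fits with a library left out are not given here. Interactions of JQ1 with ET-1 or PE called 0 members and 0 of all tested genes by limma. At an unadjusted p under 0.05 there were 0 members, again with no share of all tested genes beside it. With the replicate block 5 and 10 genes were called (0.0363 and 0.0725%), none of them a member.

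**Figure D4:**
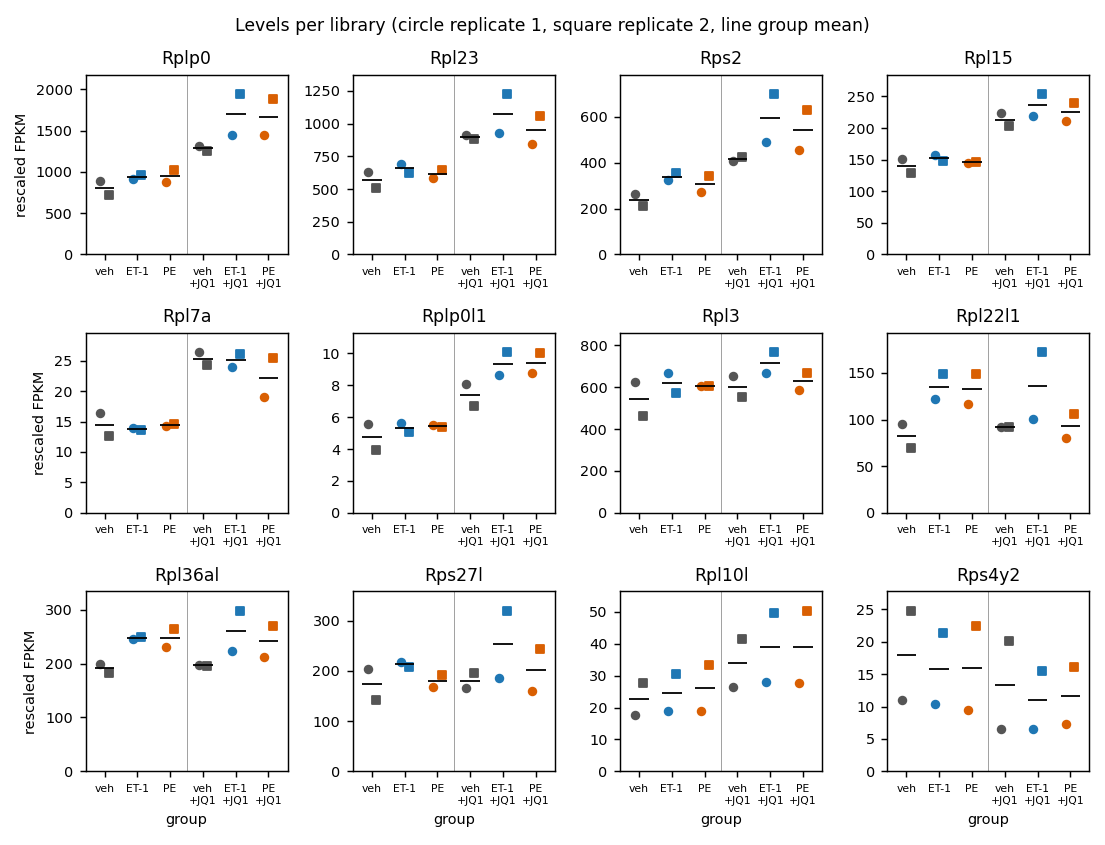
Rescaled FPKM of 12 members in the 6 groups (colour by agonist, circles replicate 1, squares replicate 2, lines group means), each panel from 0. In Rplp0, Rpl23, Rps2, Rpl15, Rpl7a and Rplp0l1 the 6 JQ1 libraries lie above the 6 DMSO libraries; in Rpl10l and Rps4y2 replicate 2 is the higher library in every group.

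The muscle paralog Rpl3l was listed at 0 in all 12 libraries (chr10:14094754-14105308, + strand), while Rpl3 (chr7:121297355-121311565, - strand) averaged 620.0 rescaled FPKM. A listed 0 can be a failed estimate, so no ratio of Rpl3l to Rpl3 was formed. For 6 other paralog pairs the log2 ratio within a library was compared between 6 JQ1 and 6 DMSO libraries by an exact permutation test within treatments (two-sided, 216 arrangements, smallest possible p = 0.00926, adjusted over 6 pairs). A ratio does not depend on the scaling between libraries and shows unequal change only. The log2 ratio of Rpl36al to Rpl36a was 1.28 and 1.55 with vehicle, 1.34 and 1.27 with ET-1 and 1.48 and 1.47 with PE, against 1.03 and 1.09, 1.10 and 0.90 and 1.19 and 1.03 in the same order with JQ1. It fell by 0.34 with JQ1 (exact p = 0.00926, adjusted 0.0278), lower in 6 of 6 same-numbered pairs of libraries. Rpl36a rose by the averaged contrast (0.36 ± 0.14, limma adjusted p = 0.0488) and Rpl36al gave 0.02 ± 0.09 (0.864). The only Rpl36a gene listed has 1 exon, and the paralogs are close in sequence, so how reads were divided between them is uncertain.

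The log2 ratio of Rpl7l1 to Rpl7 was -1.07 and -0.82 with vehicle, -1.10 and -1.16 with ET-1 and -1.003 and -1.02 with PE, against -1.40 and -1.28, -1.42 and -1.68 and -1.37 and -1.55 in the same order with JQ1. By the averaged JQ1 contrast Rpl7l1 itself gave 0.06 and Rpl7 was called higher. Their ratio fell by 0.42 with JQ1 (exact p = 0.00926, adjusted 0.0278), lower in 6 of 6 pairs. Without the ET-1 library of replicate 1, or without either vehicle plus JQ1 library, the adjusted p of this ratio and of Rpl36al to Rpl36a was 0.0556. Rps4y2, a single-exon relative of Rps4x on chromosome 4, stood at 11.1 and 24.8 with vehicle, 10.4 and 21.4 with ET-1 and 9.54 and 22.4 with PE, against 6.56 and 20.1, 6.52 and 15.5 and 7.23 and 16.1 in the same order with JQ1. Replicate 2 was the higher in 6 of 6 groups. Its log2 ratio to Rps4x fell by 0.82, lower in 6 of 6 pairs, with an adjusted exact p of 0.204, and of 0.0469 with the replicate block. Rpl10l, which replaces Rpl10 in male germ cells, stood at 17.8 and 27.7 with vehicle, 18.9 and 30.4 with ET-1 and 19 and 33.2 with PE, against 26.4 and 41.6, 28.1 and 49.7 and 27.7 and 50.3 in the same order with JQ1, and replicate 2 was again the higher in 6 of 6 groups. Its log2 ratio to Rpl10 rose in 6 of 6 pairs by 0.32 on average, with an adjusted exact p of 0.278, and of 0.0469 with the replicate block. With the block, labels are exchanged only within same-numbered pairs, so 6 of 6 pairs in 1 direction give the smallest p possible. Both adjusted exact p of 0.0469 thus rest on the shared direction of the pairs and not on its size. In the limma fit with the block, Rpl10l was called higher with JQ1 in each treatment (adjusted p = 0.000486, 0.000234 and 0.000413) and Rps4y2 lower (0.00743, 0.0049 and 0.0158). Without the block neither was (Rpl10l 0.375, 0.309 and 0.365, Rps4y2 0.638, 0.6 and 0.69). Whether reads of Rpl10l come from Rpl10, or those of Rps4y2 from Rps4x, was not tested.

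The log2 ratios of Rps27l, a p53 target, to Rps27 and of Rpl39l, which is enriched in testis, to Rpl39 differed by -0.09 and -0.08 (exact adjusted p = 0.511 and 0.722). Rpl39l had levels of 0.811 to 2.24 rescaled FPKM, at which the pseudocount of 0.5 understates differences.

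**Figure D5:**
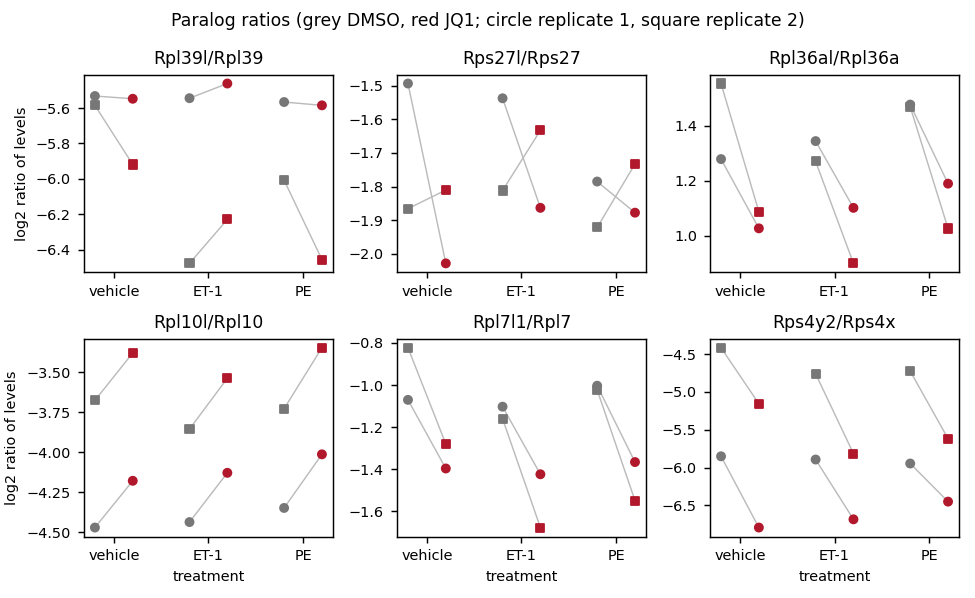
Log2 ratio of each paralog to its partner in the 12 libraries, by treatment (grey DMSO, red JQ1, lines joining libraries of the same replicate number). Rpl36al/Rpl36a, Rpl7l1/Rpl7 and Rps4y2/Rps4x fall in 6 of 6 pairs, Rpl10l/Rpl10 rises in 6 of 6, and Rps27l/Rps27 and Rpl39l/Rpl39 go both ways.

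The start sites of the members were examined because the TOP motif is a shared feature that the choice of genes did not use. RefSeq promoters (rat assembly GRCr8) matched 56 members by symbol, chromosome and strand, at 54 distinct start sites. In the 30 bases from 10 before to 20 after the annotated start, 31 of the 54 (57.4%) held a run of at least 8 pyrimidines, against 10.2% of 21842 protein-coding promoters, and the longest run had a median of 8.5 against 4 bases. CTTTCC on the sense strand was in 12 of the 54 (22.2%, against 1.22% of protein-coding promoters), a motif that is itself all pyrimidines, and on the antisense strand in 0 (against 1.00%). Shown with the longest pyrimidine run in capitals are members called with JQ1 in all treatments (Rps2, Rplp0, Rpl23, Rpl7a), the member with the longest run (Rps23), and Rpl3 and Rpl22l1, which were called in none. The coordinates of these windows are on GRCr8.
Rps2, chr10:14251838-14251867, + strand: TCTTTTTCTTCgggaaaacacgtgagtctg
Rplp0, chr12:46718371-46718400, - strand: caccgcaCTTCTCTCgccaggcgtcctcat
Rpl23, chr10:83272165-83272194, - strand: CTTCCTTTCTgactctttccggacgctcaa
Rpl7a, chr3:30637126-30637155, + strand: CTCCagccgagcaagatggtgagtgattat
Rps23, chr2:23814507-23814536, + strand: ccttcctgCCTCTCTTCTCTCTTTCTCTCg
Rpl3, chr7:113507971-113508000, - strand: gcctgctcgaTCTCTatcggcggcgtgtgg
Rpl22l1, chr2:113683186-113683215, + strand: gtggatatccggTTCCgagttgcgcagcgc
Rps2, Rplp0 and Rpl23 hold runs of 11, 8 and 10 bases, and Rpl7a, Rpl3 and Rpl22l1 of 4, 5 and 4. Runs before the annotated start were counted too. The longest run of Rpl23 lies wholly before that start and that of Rps2 almost wholly, and both begin at the edge of the window. The window of Rpl23 also holds a shorter run, of 8 pyrimidines, after the start. Of 4 matched start sites of members called in all treatments, 3 had a run of at least 8, and of 46 of members called in none, 24 did. The 46 include Rpl3l, which has a run of 9 but was not tested. Rpl10a, Rpl28, Rps10 and Rps15, called in 1 or 2 treatments, had runs of 11, 11, 13 and 12. Start sites in the annotation may be some bases from those used in these cells.

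Genes that work with the ribosome were compared from lists chosen with earlier results of these data known. Among genes for proteins fused to or bound on ribosomal subunits, the averaged JQ1 contrast called higher the scaffold Rack1 (2 genes, log2 differences of 0.68 ± 0.08 and 0.58 ± 0.06) and Fau (0.22 ± 0.07). Of 17 translation factors and TOP-mRNA genes, 5, 5 and 8 were called higher with JQ1 in vehicle, ET-1 and PE (29.4, 29.4 and 47.1%, against 15.3, 17.9 and 17.5% of all tested genes), and 1 lower in each (5.88%, against 16.7, 19.6 and 19.0%). The higher ones in all 3 were Eef2, the translocation factor, Pabpc1, the poly(A)-binding protein, Eif4a2, an RNA helicase of initiation, and Npm1, a nucleolar chaperone. Eef2 stood between 661 and 833 in the DMSO libraries and between 1294 and 1512 in the JQ1 libraries, with an averaged log2 difference of 0.90 ± 0.09. The lower one was Hnrnpa1 (-0.37 ± 0.04), a splicing factor. By the averaged contrast 30.2% of all tested genes were called higher and 29.9% lower. Of 16 regulators it called 5 higher, a share of 31.2% near that background, among them the translation repressor Eif4ebp2 (0.77 ± 0.05), and Rptor, a subunit of mTOR complex 1, lower (-0.25 ± 0.06). Of 16 ribosomal protein chaperones and maturation factors, Aamp was called higher (0.26 ± 0.05) and 4 lower (6.25 and 25%, both under the background), with Ltv1, which matures the small subunit, at -1.05 ± 0.07 and Bccip at -0.62 ± 0.06. Of the 75 mitochondrial ribosomal protein genes, 11, 9 and 11 were called higher and 20, 28 and 27 lower with JQ1 (14.7, 12 and 14.7% higher, under the background, and 26.7, 37.3 and 36.0% lower, above it), with medians of -0.16, -0.20 and -0.26.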

How the data were processed

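Each of 12 deposited tables gave per-transcript FPKM and mean coverage (signal) as the authors made them with StringTie, per the file headers. Trim Galore 0.6.0, STAR 2.7.1a, StringTie 1.3.4d, DESeq2 1.24.0 and the build rn6 are listed per the submitters' processing notes. Strand counting was not stated in the sources used here, and antisense and overlapping genes are uncertain. The sum of FPKM per gene was brought to a common scale by median of ratios (factors 0.873 to 1.13, computed on 15551 genes with no 0). A gene entered the test with 1 rescaled FPKM or more in any 2 libraries. In R 4.3.3, limma 3.58.1 (robust, trended moderation) was fitted to log2(value + 0.5) with 1 mean for each of 6 groups and Benjamini-Hochberg adjustment over 13793 genes at 0.05. Folds on that scale understate changes of low genes. Paralog ratios used exact permutation tests. The limma test was checked on simulated data for 1 comparison, without shifts shared by same-numbered libraries. The permutation test was checked on 1 constructed case. Replicate numbers paired the libraries in the data: shifts of same-numbered libraries correlated in all 15 pairs of groups (r from 0.155 to 0.671), and no label explains the numbers. Named members were fixed by rule: paralog pairs, stalk proteins, Rps6, Rps19bp1, the 5 highest and 5 lowest, and the largest differences per comparison. Rps23 and the members listed for the averaged contrast fall outside it and were chosen after their values were seen, and the members and lists were chosen with earlier results of these data known. Alternatives were the replicate block, deposited scaling, factors from genes of at least 400 nt, a pseudocount of 0.1, no filter, only the libraries compared, and each library left out. Rpl22, Rpl26l1 and Rplp1 were not analysed here, and some genes that the rule names are not reported here.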

Additional observations from a re-analysis of the deposited data

How the results depend on the processing

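With the replicate block, 16 members were called for JQ1 in vehicle, 20 with ET-1 and 27 for the averaged agonist contrast, and the ratios of Rpl10l to Rpl10 (0.32) and of Rps4y2 to Rps4x (-0.82) passed; the block ended no call. Fits of only the libraries compared called 5, 3 and 2 members for JQ1 in vehicle, with ET-1 and with PE. The averaged agonist contrast called 1 member on FPKM as deposited, 0 without the filter and 0 without the 2 outermost libraries, where the averaged JQ1 contrast called 17. Leaving out 1 library gave 3 to 8, 3 to 20 and 1 to 11 members for JQ1 in vehicle, with ET-1 and with PE, 21 to 59 for its average, 0 to 30 for the averaged agonists and 0 to 0 for each agonist and interaction. The high counts, 20, 11, 59 and 30, came without the replicate 1 library of ET-1 plus JQ1 or, for 11, of PE plus JQ1. Without 1 library the ratios ranged from -0.24 to 0.07 (Rpl39l to Rpl39), -0.15 to -0.03 (Rps27l), -0.39 to -0.30 (Rpl36al), 0.19 to 0.46 (Rpl10l), -0.46 to -0.38 (Rpl7l1) and -1.09 to -0.55 (Rps4y2). The first turned positive without the ET-1 library of replicate 1 (0.075), the ET-1 plus JQ1 library of replicate 2 (0.05) or the PE plus JQ1 library of replicate 2 (0.06). The cause of these shifts was not tested, and the shares of all tested genes in the fits on fewer libraries are not given here. On the deposited scale the median of all genes shifted by as much as -0.12 from its rescaled value (PE without JQ1), and 31.3, 31.9 and 38.7% of all JQ1 calls were higher in place of 47.9, 47.8 and 48.0%; members called were still all higher. Ratios of Rpl3l to Rpl3, Rpl22l1 to Rpl22 and Rpl26l1 to Rpl26 were not run.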
